A study of Mus musculus with 8 samples.

Results

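The cytosolic ribosomal protein genes were read as a group in the dorsal forebrain of mouse embryos with and without a conditional deletion of Sufu. They were the protein-coding genes whose symbol is Rps or Rpl with a number and at most 1 letter, together with Rplp0, Rplp1, Rplp2 and Rpsa, which gave 81 of the 43629 genes listed. Of these, 32 encode small subunit proteins and 49 large subunit proteins, and 77 passed the filter on low counts and were tested. The 4 that did not pass were Rps27, Rpl3l, Rpl10l and Rpl39l.

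Dorsal forebrain was taken at E12.5 from male embryos of a mixed background that includes C57BL/6J. Mut_295, Mut_317, Mut_337 and Mut_340, the Sufu-cKO samples, had 1 Emx1-cre allele and floxed Sufu on both chromosomes. Control samples (Cont_294, Cont_345, Cont_365 and Cont_370) carried floxed Sufu on both chromosomes or on 1, so floxed Sufu was present in every sample. Emx1-cre drives recombination in dorsal telencephalic progenitors and the cells they give rise to, and blood vessel, blood and immune cells of the tissue keep Sufu. SUFU holds back hedgehog signalling by binding the GLI transcription factors. Whether the samples of a group are separate embryos is not said in the labels, so what their spread covers is not known. The p-values below rest on that spread. Every pair of samples within a group differed by more than sampling noise, and the origin of these differences was not tested.

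Total counts lay between 27514357 and 34878838 per sample. Sufu fell from 112 ± 9.13 to 40.6 ± 4.64 CPM (counts per library size after TMM scaling; SD, n = 4 each), with no overlap of the groups. Across all genes, edgeR's quasi-likelihood test called 1689 of 15382 at an adjusted p under 0.05, which is 11.0% (5.34% higher and 5.64% lower in Sufu-cKO). Every cell type marker found among the genes listed had counts. The erythroid list kept 10 such genes, as not all its symbols were found. The summed level of 7 of the 9 marker lists did not overlap between the groups: radial glia and neuron markers were higher in Sufu-cKO samples, and dorsal telencephalon, choroid plexus, erythroid, pericyte and microglia markers lower, with choroid plexus at 529 to 805 CPM in controls and 92.4 to 293.5 CPM in Sufu-cKO. Single markers did not all follow their sum: 5 of 11 radial glia markers had a log2 fold change (Sufu-cKO over control) below 0. Of 10 dorsal telencephalon markers, 8 lay below 0, and edgeR called 6 lower and 1 higher. Erythroid sums were barely apart, at 3576 CPM in the lowest control and 3547 CPM in the highest Sufu-cKO sample. For microglia these values were 69.8 and 67.3 CPM. Among single markers, edgeR called 0 of 10 erythroid genes and 3 of 11 microglia genes, the 3 lower. In bulk tissue, fewer cells of a type and less RNA per cell cannot be told apart.

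Ribosomes translate mRNA into protein, and their proteins are built with RNA into a small subunit, which reads the mRNA, and a large subunit, which forms the peptide bond. Messages of these proteins belong to the TOP class, named for a terminal oligopyrimidine tract at their 5′ end, through which mTOR signalling and LARP1 set their translation. Their genes are also a well-known source of processed pseudogenes, intronless copies of the mRNA inserted elsewhere in the genome, so a short read may match a ribosomal protein gene and its copies equally well.

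The start sites of 4 members are shown because the tract over the start is the feature their class is named for. These are examples that carry such a run, which 19 of the 60 members with a start-site window had at 6 bases or more. Each window runs from 15 bases before the annotated start to the 15 bases from it on, 5′ to 3′ on the gene's strand, from RefSeq on GRCm38.p6, and the capitals mark the pyrimidine run that covers the start.
Rps6: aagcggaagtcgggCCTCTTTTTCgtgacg
Rps9: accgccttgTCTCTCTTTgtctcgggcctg
Rps18: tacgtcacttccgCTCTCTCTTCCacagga
Rpl15: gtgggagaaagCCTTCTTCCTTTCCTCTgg
The runs were 10 bases in Rps6, 9 in Rps9, 11 in Rps18 and 17 in Rpl15. RefSeq windows were at hand for 60 members and not for 21. A pyrimidine run of at least 6 bases over the start stood in 19 of the members' 72 windows (26.4%), against 7.25% of the 32851 windows of all genes. In windows from 250 bases before the start to 50 bases after it, searched on both strands, CCGGAAG, a motif of GABPA and other ETS factors, stood in 36.1% of the members' windows and 8.86% of all windows. AAGATGG, a motif of YY1, stood in 15.3% and 6.34%. The TATA box TATAAA stood in 8.33% of the members' windows against 13.6% of all, and the E-box CACGTG in 11.1% against 7.15%. None of these motifs contains another, and a match is a description of the letters only.

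A second set of sequences is shown because the level of some copies went against that of their member. Other expressed copies did not: Pearson's r of the log2 levels over the samples was -0.98 for Rps2 and Rps2-ps13, but 0.43 for Rpl14 and Rpl14-ps1. The 6 pairs of a member and an expressed near-identical copy shown here were chosen after their values were seen. Each pair of lines gives 41 bases of the member's coding sequence round the first difference from the copy, then the same stretch of the copy, from GENCODE M21 transcripts on GRCm38, with differing bases in capitals.
Rpl26: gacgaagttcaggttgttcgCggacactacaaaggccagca
Gm15772: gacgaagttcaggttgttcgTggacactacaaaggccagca
Rps18: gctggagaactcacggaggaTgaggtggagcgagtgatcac
Gm10260: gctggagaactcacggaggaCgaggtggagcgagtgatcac
Rps28: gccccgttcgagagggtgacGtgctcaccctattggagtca
Gm10263: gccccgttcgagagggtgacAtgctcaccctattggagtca
Rps2: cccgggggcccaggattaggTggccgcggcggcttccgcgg
Rps2-ps13: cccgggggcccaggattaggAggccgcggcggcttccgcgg
Rplp0: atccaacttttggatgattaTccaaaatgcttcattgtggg
Gm8730: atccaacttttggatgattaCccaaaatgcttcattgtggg
Rpl3: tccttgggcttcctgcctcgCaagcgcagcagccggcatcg
Rpl3-ps1: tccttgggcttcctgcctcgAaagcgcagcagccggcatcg
Counted from 1 at the first base of the member's start codon, with the member's base first, these differences are C177T for Rpl26, T186C for Rps18, G163A for Rps28, T60A for Rps2, T72C for Rplp0 and C57A for Rpl3. In all, 2 of 438 aligned bases differed between Rpl26 and Gm15772, 5 of 545 between Rps18 and Gm10260, 3 of 296 between Rps28 and Gm10263, 7 of 882 between Rps2 and Rps2-ps13, 12 of 954 between Rplp0 and Gm8730, and 2 of 1210 between Rpl3 and Rpl3-ps1. The copies stand on other chromosomes than their members: Gm15772 at chr5:3236431-3236868, Gm10260 at chr13:97760072-97760632, Gm10263 at chr13:73317844-73318143, Rps2-ps13 at chrX:52898588-52899469, Gm8730 at chr8:102864845-102865798 and Rpl3-ps1 at chrX:13202571-13203780 (GRCm38).

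In Sufu-cKO samples the ribosomal protein genes lay close to their control level as a group. Of 77 tested members, edgeR called 0 higher and 1 lower, Rpl29, against 11.0% of all tested genes. At an unadjusted p under 0.05 there were 2 members, Rpl29 among them. DESeq2 called Rpl29 alone among the members, and limma-voom called 0 of them, while they called 13.8% and 11.2% of all tested genes. No member had groups that did not overlap, which 16.2% of all tested genes had. In the authors' deposited table, 1 member, Rpl29, had a false discovery rate under 0.05, as had 5.78% of the 25299 genes with a value.

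Log2 fold changes (Sufu-cKO over control) of the members had a median of -0.06, against 0.01 over all tested genes. Below 0 lay 54 of 77 members (70.1%) and above it 23, while 48.2% of all tested genes lay below 0. Between -0.2 and 0.2 lay 63 members (81.8%), and 65.6% of all tested genes. For the small subunit, 23 of 31 tested members lay below 0, with a median of -0.08, and 0 were called by edgeR, DESeq2 or limma-voom, with 0 at an unadjusted p under 0.05. For the large subunit, 31 of 46 lay below 0, with a median of -0.04. Members of at least 10 CPM numbered 53, and edgeR called 0 of them, with 1 at an unadjusted p under 0.05, and DESeq2 and limma-voom called 0. Their median standard error (SE) was 0.089 on the log2 scale, and 31 of them had an SE under 0.1, beside a median SE of 0.076 over all 9992 genes of this level, of which 11.3% were called.

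**Figure D1:**
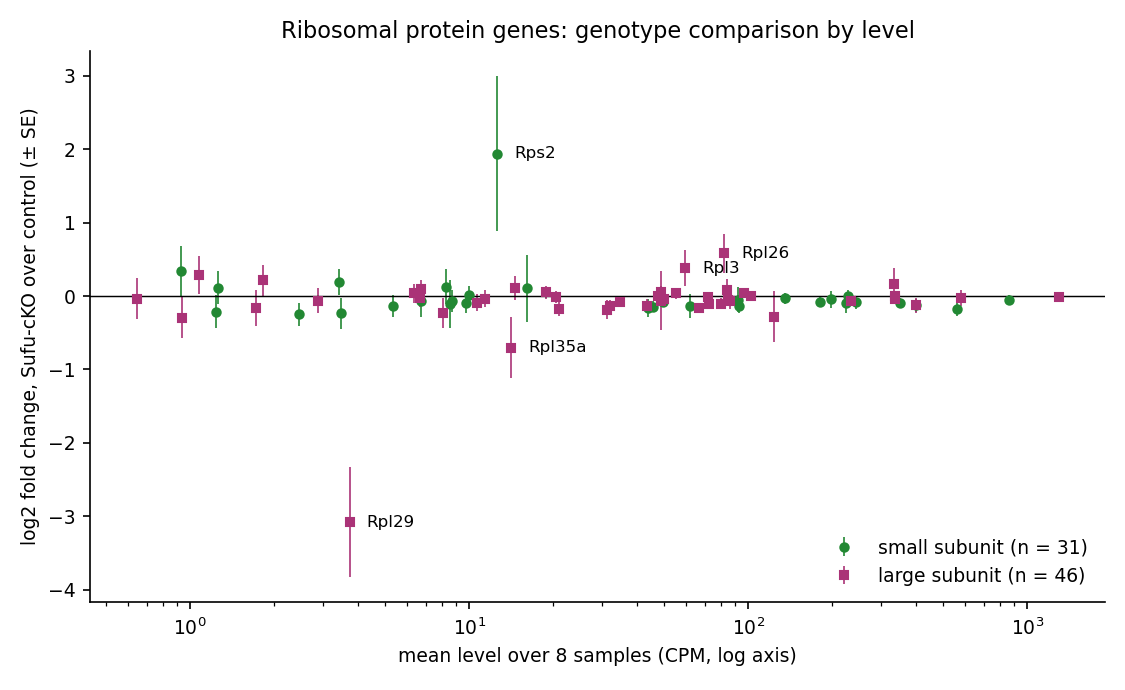
Log2 fold change (Sufu-cKO over control, with SE) of the 77 tested ribosomal protein genes against their mean level in CPM on a log axis; circles are small and squares large subunit genes. Most points lie near 0 at every level, Rpl29 lies at -3.08, and Rps2, at 1.94, has an SE of 1.06.

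The summed level of the 81 members was 9439, 8994, 9496 and 8374 CPM in Cont_294, Cont_345, Cont_365 and Cont_370, and 9474, 8671, 8791 and 8243 CPM in Mut_295, Mut_317, Mut_337 and Mut_340. The means were 9076 ± 519 and 8795 ± 510 CPM (SD, n = 4 each), and the ranges overlapped nearly in full, with Mut_295 just under the highest control and Mut_340 lowest of all. As a share of all counts, the members took 0.913 ± 0.049% in controls and 0.874 ± 0.063% in Sufu-cKO samples, from 0.802% to 0.959% over the 8 samples. Small subunit genes summed to 3979 ± 202 CPM in controls and 3758 ± 257 CPM in Sufu-cKO. Large subunit genes summed to 5096 ± 321 and 5036 ± 260 CPM. Both pairs overlapped. The 78 nuclear genes of mitochondrial ribosomal proteins, which serve the separate ribosome of mitochondria, summed to 2847 ± 59.8 and 2893 ± 53.6 CPM, also with overlap.

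Levels of single members spread widely. Mean levels lay under 1 CPM for 7 members, from 1 to 10 CPM for 21, from 10 to 100 CPM for 34 and at 100 CPM or above for 19. The 4 with most counts, Rpl4, Rps3 and Rpl8 among them, held 36.9% of the summed level and the top 10 held 61.0%. Per kilobase of exon sequence, Rpl4 stood highest at 646 CPM per kb, with Rpl8 next at 425, and Rps15 stood among the highest 5 at 357 CPM per kb. Rpl8 lies near the peptidyl transferase centre and Rps15 in the head of the small subunit. At the other end of the tested members stood Rps13 at 0.459 CPM per kb, Rps6, the classic phosphorylation target of S6 kinase, at 0.796, Rpl24 at 1.05, Rpl34 at 1.08 and Rpl38 at 1.18 CPM per kb.

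Lower levels per kilobase went loosely with sequence shared with other genes. For 80 members with an annotated protein-coding transcript, the share of its 50-base words also found in transcripts of other genes was counted. The 42 members with at least 50% of words shared had a median of 5.81 CPM per kb, and the 38 with fewer had 38.9 CPM per kb. Spearman's rho between the share and the level per kilobase was -0.39 across these 80 members, which share all libraries. Rps6 had 84.6% of its words in other genes, Rps13 83.0% and Rpl24 81.7%, while Rps3 had 2.96%, Rpl8 7.86% and Rpl4 16.5%. Rpl7a, at 81.2% and 40.3 CPM per kb, and Rpl35, at 95.1% and 25.1 CPM per kb, were higher with much shared sequence. Rpl34, at 37.9%, and Rps29, at 35.8% and 1.34 CPM per kb, were low with less shared sequence. For Rpl34, however, 10 near-identical copies were annotated. Its copy Gm10086 held 4.52 and 3.92 CPM (means of control and Sufu-cKO) and its copy Gm6404 2.53 and 2.28 CPM, beside 2.93 and 2.81 CPM of Rpl34. At least 1 near-identical copy (90% identity over at least 50% of the member's transcript) was annotated for 57 of the 80 members, 705 copies summed over members, and 30 of these copies, of 25 members, reached 1 CPM in a sample. How reads that match several places were counted is not given in the sources used here, so the level of a member with such copies is uncertain, and the part of shared sequence in the low levels was not tested.

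**Figure D2:**
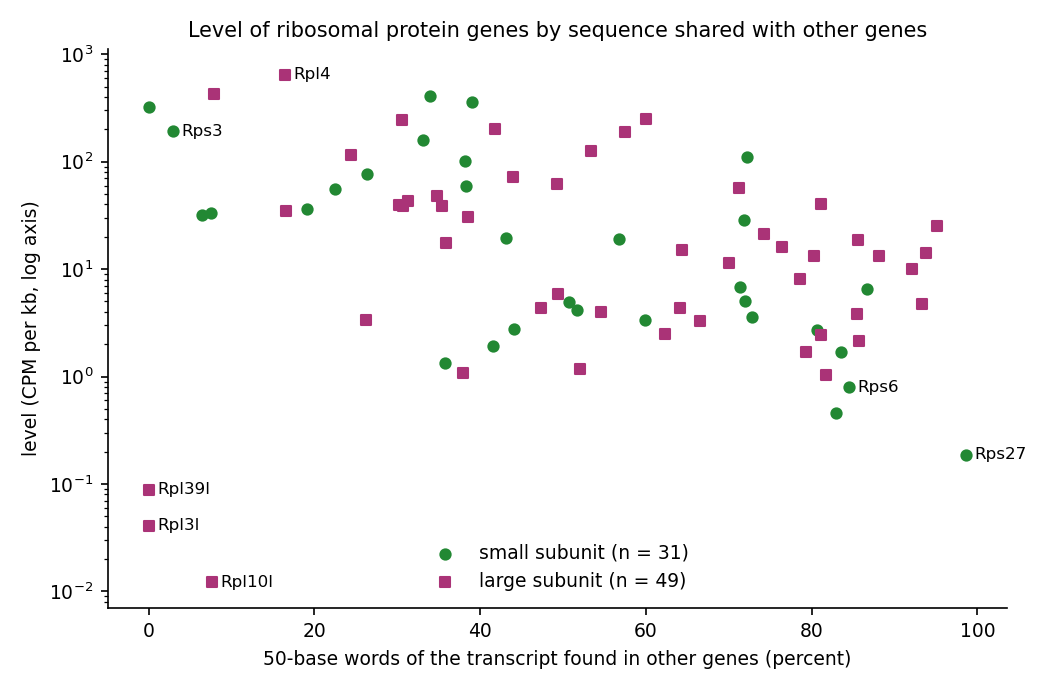
Level of 80 ribosomal protein genes in CPM per kb (log axis) against the percent of the transcript's 50-base words found in other genes. Highest levels lie at the left (Rpl4, Rps3), Rps27 lies at 98.7% shared words, and the tissue paralogues Rpl3l, Rpl10l and Rpl39l lie low with under 10% shared.

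Rps27 is the extreme case. It had 4 to 9 counts in each sample (0.14 to 0.32 CPM), too few for the filter, although it encodes a core small subunit protein. Rps27rt on chromosome 9, identical to it over 99% of the Rps27 transcript, held 1.73 to 2.60 CPM. Rps27l, its paralogue and a known p53 target, had 22.4% shared words and was measured at 50.2, 46.6, 50.1 and 44.8 CPM in controls and 43.3, 38.5, 43.1 and 48.0 CPM in Sufu-cKO samples. The groups overlapped through Mut_340, and edgeR gave a log2 fold change of -0.15 (SE 0.076, adjusted p = 0.280).

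The other tissue paralogues were near 0 in this tissue. Rpl10l, a testis gene that stands in for X-linked Rpl10, had 3 counts in Mut_295 and 0 in the other 7 samples. Rpl3l, expressed in muscle and heart, had 0 to 6 counts per sample, and Rpl39l, another testis gene, 0 to 4. Their partners were plainly expressed: Rpl10, which joins the large subunit late in its maturation, lay at 20.5 ± 1.39 and 20.4 ± 1.04 CPM in control and Sufu-cKO, and Rpl39, at the exit tunnel, at 50.4 ± 4.26 and 49.3 ± 3.75 CPM. Neither differed by more than its spread.

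Rpl29, whose large subunit protein has also been described as a heparin-binding protein, was the only member called (ENSMUSG00000048758, chr9:106429454-106431568, GRCm38). Its level was 6.21, 10.1, 9.60 and 0.73 CPM in Cont_294, Cont_345, Cont_365 and Cont_370, and 1.09, 0.60, 0.85 and 0.58 CPM in Mut_295, Mut_317, Mut_337 and Mut_340. Of the controls, 3 were high and Cont_370 stood among the Sufu-cKO samples, so the groups overlapped. By edgeR the log2 fold change was -3.08 (SE 0.752, adjusted p = 0.0405), and the authors' deposited table gives a ratio of 0.117 with a false discovery rate of 0.0243. The call was lost in 7 of the 8 fits that left out a sample (adjusted p from 0.0779 to 0.120) and held without Cont_370. The annotation lists 54 near-identical copies of Rpl29, and none in the count table reached 1 CPM; with the counts of 36 assigned to Rpl29 added, the values were 7.27, 11.0, 10.7 and 1.64 CPM in controls and 1.16 to 1.79 CPM in Sufu-cKO, and the change was -2.37 (edgeR adjusted p = 0.024).

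Steps, with a few samples far from the others, were also seen in further members. After their values were seen, 9 members were taken for a closer description, among them the 5 with the largest spread within groups (Rps2, Rpl29, Rps18, Rpl30 and Rpl35a, with a within-group SD of 0.59 to 1.28 on the log2 scale). The 5 with the smallest spread, Rpl22, Rpl4, Rpl32 and Rpl13 among them, lay at 0.048 to 0.083.

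**Figure D3:**
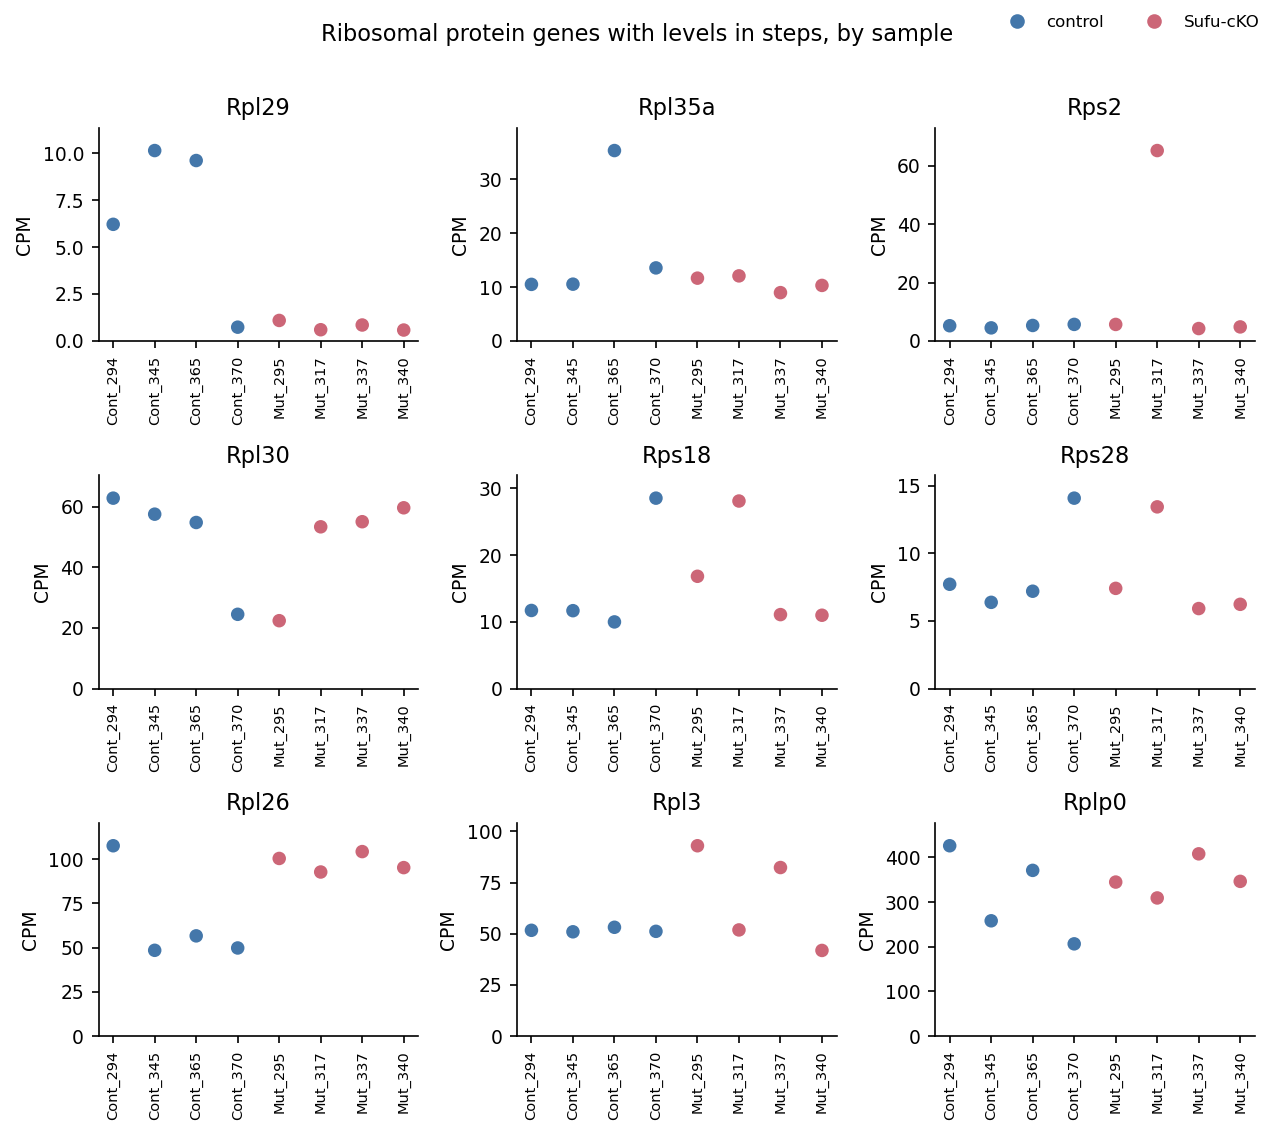
Level in CPM of 9 ribosomal protein genes in each of the 8 samples, controls in blue and Sufu-cKO in red, each axis from 0. In each panel except Rplp0, a few samples stand apart from the rest, such as Mut_317 at 65.2 CPM of Rps2. Which samples do so differs from gene to gene, though Cont_370 and Mut_317 stand apart for both Rps18 and Rps28.

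Rps2, at the mRNA entry channel of the small subunit, had 5.21, 4.48, 5.31 and 5.68 CPM in controls and 5.66, 65.2, 4.25 and 4.81 CPM in Mut_295, Mut_317, Mut_337 and Mut_340. All but Mut_317 lay within 4.25 to 5.68 CPM. Its copy Rps2-ps13 held 8.38 CPM in Mut_317 and 17.4 to 20.5 CPM in the other 7. With 36 copies added, Rps2 still stood at 77.3 CPM in Mut_317 against 25.5 to 28.8 CPM elsewhere, so the excess in that sample was not balanced by the copies counted. The log2 fold change of Rps2 was 1.94 (SE 1.06, edgeR adjusted p = 0.359), and it was -0.08 without Mut_317.

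Rps18 and Rps28, both of the small subunit, stepped together. Rps18 was at 28.5 CPM in Cont_370 and 28.1 CPM in Mut_317, at 16.8 CPM in Mut_295, and at 9.98 to 11.7 CPM in the other 5 samples. Rps28 was at 14.1 CPM in Cont_370 and 13.4 CPM in Mut_317, and at 5.92 to 7.72 CPM in the other 6. These genes are 127.4 kb apart on chromosome 17. Their copies, both on chromosome 13, took the opposite course in Cont_370 and Mut_317. Gm10260 held 58.4 and 64.8 CPM there and 100.3 to 133 CPM elsewhere, and Gm10263 held 18.2 and 16.8 CPM there and 36.2 to 40.1 CPM elsewhere. In Mut_295, where Rps18 was also raised, Gm10260 did not fall and stood at its highest, 133 CPM. In each pair the copy held more counts than the member in every sample. Rps18 and its copies together lay at 87.2 to 149.98 CPM, with Cont_370 and Mut_317 lowest, and its ratio of the highest to the lowest sample went from 2.86 to 1.72. For Rps28 that ratio went from 2.38 to 1.58. Neither gene was called between genotypes, with log2 fold changes of 0.11 (SE 0.458) for Rps18 and -0.11 (SE 0.331) for Rps28. The change of Rps18 was -0.26 without Mut_317 and 0.58 without Cont_370.

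Rpl26, a large subunit protein near the tunnel exit that also binds the p53 message, had 108, 48.5, 56.6 and 49.8 CPM in controls and 100.4, 92.7, 104 and 95.2 CPM in Sufu-cKO samples. Cont_294 stood with the Sufu-cKO samples and the other 3 controls lay apart at 48.5 to 56.6 CPM. Gm15772 held 18.2, 18.7 and 17.6 CPM in those 3 controls and 0.065 to 0.147 CPM in Cont_294 and the Sufu-cKO samples. The log2 fold change of Rpl26 was 0.58 (SE 0.261, edgeR adjusted p = 0.248). Without Cont_294 it was 0.93 and Rpl26 was called higher, and Rpl29 was then not called. With 8 copies added, the ratio of the highest to the lowest sample went from 2.22 to 1.62 and the log2 fold change to 0.31 (edgeR adjusted p = 0.241).

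Rpl3, whose protein reaches towards the peptidyl transferase centre, was at 51.7, 51.0, 53.2 and 51.2 CPM in controls, and at 93.0, 51.9, 82.3 and 41.9 CPM in Mut_295, Mut_317, Mut_337 and Mut_340. Its copy Rpl3-ps1 held 0.232 and 0.469 CPM in Mut_295 and Mut_337, where Rpl3 was high, and 1.94 to 2.50 CPM elsewhere. The copy held far fewer counts than the step in Rpl3, and the ratio of the highest to the lowest sample was 2.22 without the copies and 2.12 with them. Rpl3 did not pass the test (edgeR log2 fold change 0.38, SE 0.243, adjusted p = 0.432).

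Rpl30 and Rpl35a stepped without an expressed copy on the opposite course. Rpl30 was low in Cont_370 (24.5 CPM) and Mut_295 (22.4 CPM) and at 53.3 to 62.8 CPM in the other 6 samples, 1 low sample in each genotype. Adding its copies left the ratio of the highest to the lowest sample at 2.79, against 2.81 before. Rpl35a, a gene of inherited Diamond-Blackfan anaemia, was at 35.3 CPM in Cont_365 and at 8.97 to 13.6 CPM in the other 7. EdgeR gave a log2 fold change of -0.70 (SE 0.419, adjusted p = 0.393), and of -0.11 without Cont_365.

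**Figure D4:**
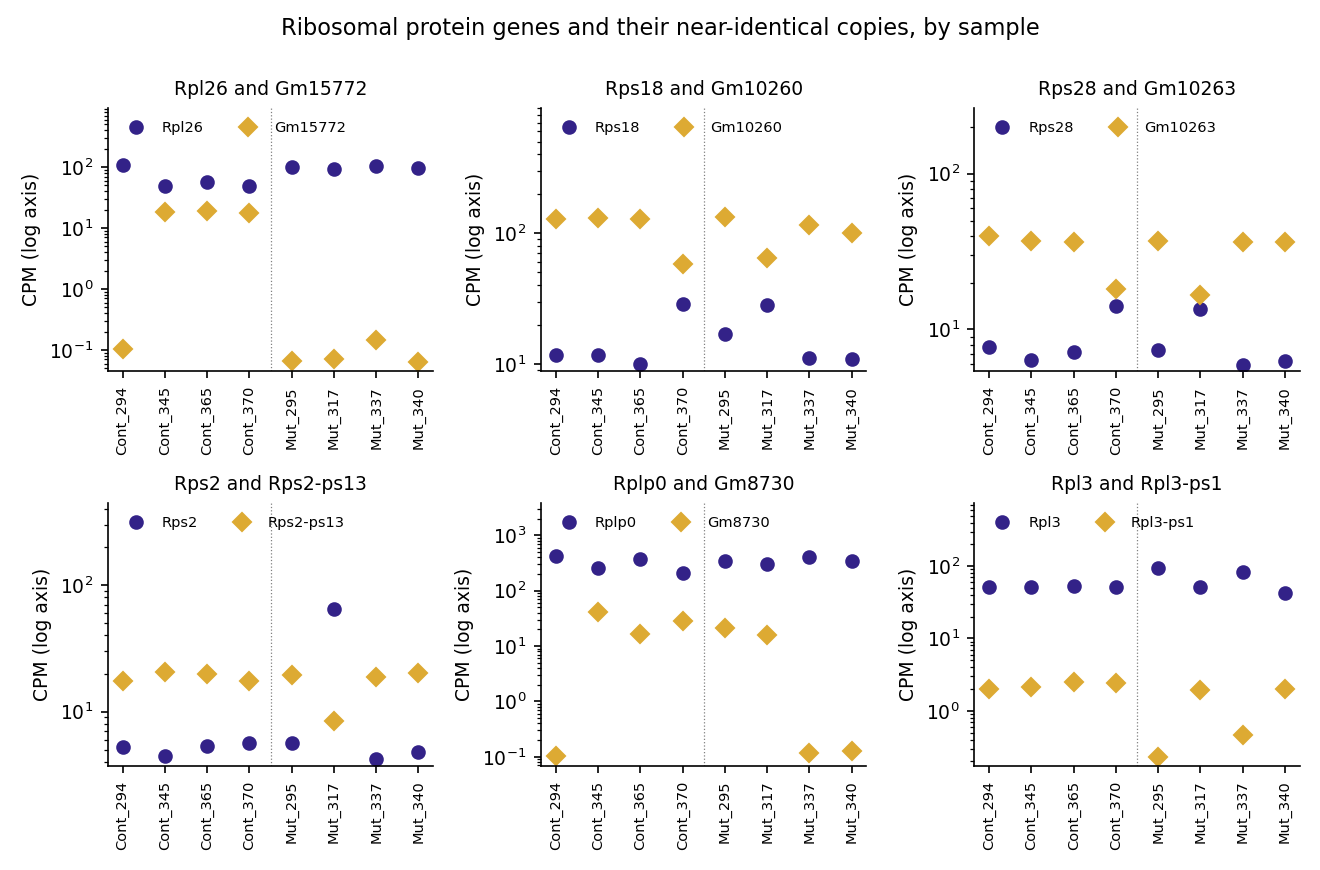
Level in CPM (log axis) of 6 ribosomal protein genes (circles) and a near-identical copy of each (diamonds) in the 8 samples, with a dotted line between controls and Sufu-cKO. In Cont_294 Rpl26 is at 108 CPM and Gm15772 near 0.1 CPM; for Rplp0 the opposition is looser, with Gm8730 at 16.7 CPM in Cont_365, where Rplp0 is at 371 CPM.

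The stalk of the large subunit, which recruits the translation factors, is made of Rplp0, Rplp1 and Rplp2 on a base formed with Rpl12. Rplp0 was at 425.9, 258, 371 and 206 CPM in controls and 344.7, 309, 408 and 346 CPM in Sufu-cKO samples, and the Sufu-cKO values lay inside the control range. Its copies Gm8730 and Gm9625 on chromosomes 8 and 13 were near 0 in Cont_294, Mut_337 and Mut_340 (0.103 to 0.129 CPM and 0.678 to 1.03 CPM) and at 16.0 to 40.5 CPM and 14.5 to 30.5 CPM in the other 5 samples. With 4 copies added the ratio of the highest to the lowest sample went from 2.06 to 1.62. Rplp1 was at 96.9, 174, 153 and 118 CPM in controls and 176, 107, 100.5 and 61.8 CPM in Sufu-cKO samples, with Mut_295 highest and Mut_340 lowest of all 8. Rplp2 lay at 83.0 ± 6.37 and 77.2 ± 7.23 CPM and Rpl12 at 22.2 ± 2.28 and 19.7 ± 1.99 CPM. Log2 fold changes were 0.16 for Rplp0 (SE 0.228), -0.28 for Rplp1 (SE 0.345), -0.10 for Rplp2 (SE 0.078) and -0.17 for Rpl12 (SE 0.101), and none passed the test. Of the 29 copies tested, edgeR called 1 higher and 0 lower, beside 11.0% called over all tested genes. The called copy was Gm11942, a copy of Rplp1 on chromosome 4, higher by 0.71 on the log2 scale (adjusted p = 0.0365 by edgeR). Gm11942 held 3.43 to 6.12 CPM in controls and 6.34 to 9.67 CPM in Sufu-cKO samples.

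Rpl5 and Rpl11 carry the 5S rRNA into the large subunit and, when free, inhibit MDM2 and so raise p53. Rpl5 had 56.6, 54.2, 54.8 and 52.2 CPM in controls and 53.7, 52.4, 53.2 and 64.1 CPM in Sufu-cKO samples. All but Mut_340 lay between 52.2 and 56.6 CPM. Rpl11 had 6.51 ± 0.550 and 6.93 ± 0.934 CPM. Neither passed the test, with log2 fold changes of 0.04 (SE 0.072) and 0.09 (SE 0.133). Among 17 tested p53 target genes, 0 were called higher and 2 lower (11.8%, against 11.0% of all tested genes), Trp53inp1 (-0.25, edgeR adjusted p = 0.0251) and Perp (-0.73, edgeR adjusted p = 0.0471).

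Among the most highly measured members, differences between genotypes stayed within the spread. Rpl4 was at 1389, 1258, 1333 and 1225 CPM in controls and 1274, 1300.3, 1297 and 1298 CPM in Sufu-cKO samples (log2 fold change -0.01, SE 0.054). Rps3 was at 876 ± 61.4 and 848 ± 44.0 CPM. Rpl22, dispensable for most translation and needed in T cell development, had the smallest spread of all members, 341 ± 14.1 and 331 ± 7.61 CPM. At the low end, Rps6 had 1.21 ± 0.144 and 1.31 ± 0.291 CPM, Rpl24 0.969 ± 0.330 and 1.18 ± 0.116 CPM, and Rpl38, known for its part in the translation of Hox messages, 0.647 ± 0.202 and 0.637 ± 0.091 CPM. Their SE lay between 0.219 and 0.281, so changes of that size could not be seen in them at this depth. Rps16 (-0.25, SE 0.156), Rpl36 (-0.30, SE 0.282) and Rps29 (0.34, SE 0.341) were among the 5 lowest and 5 highest log2 fold changes and did not pass the test.

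Part of the members' variation followed the sample and the base composition of their transcripts. Of all pairs of samples within a group, Mut_295 and Mut_340 differed most from each other. Among the 53 members of at least 10 CPM, 35 were higher in Mut_295 than in Mut_340, 37 stood above their mean over the 8 samples in Mut_295, and 33 stood below it in Mut_340. Members with a GC content over 55% (13 genes) had a median deviation from that mean of 0.19 in Mut_295 and -0.30 in Mut_340 on the log2 scale. Those of 50% to 55% GC (17 genes) had 0.15 and -0.20, and those of 45% to 50% GC (19 genes) 0.02 and 0.01. The 4 members of up to 45% GC had -0.06 and 0.16, the reverse order. Other genes over 55% GC showed 0.16 and -0.19 (2213 genes), and those of up to 45% GC -0.08 and 0.15 (2489 genes). Across the 53 members, the difference of Mut_295 from Mut_340 had a median of 0.20 on the log2 scale, and across 9912 other genes -0.05. GC content and this difference had a Pearson r of 0.46 in the members and 0.68 in the other genes. These points share the same pair of libraries. Both samples are Sufu-cKO, and without Mut_295 edgeR called 2 members, both lower, Rpl13a among them, which the fit of all samples did not call. Rpl13a had 425, 413, 449.6 and 377 CPM in controls and 472, 358, 366 and 330.3 CPM in Sufu-cKO, where Mut_295 was highest of the 8. The part of GC content in these values was not tested beyond removing its trend, after which Rpl29 was again the only member called.

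**Figure D5:**
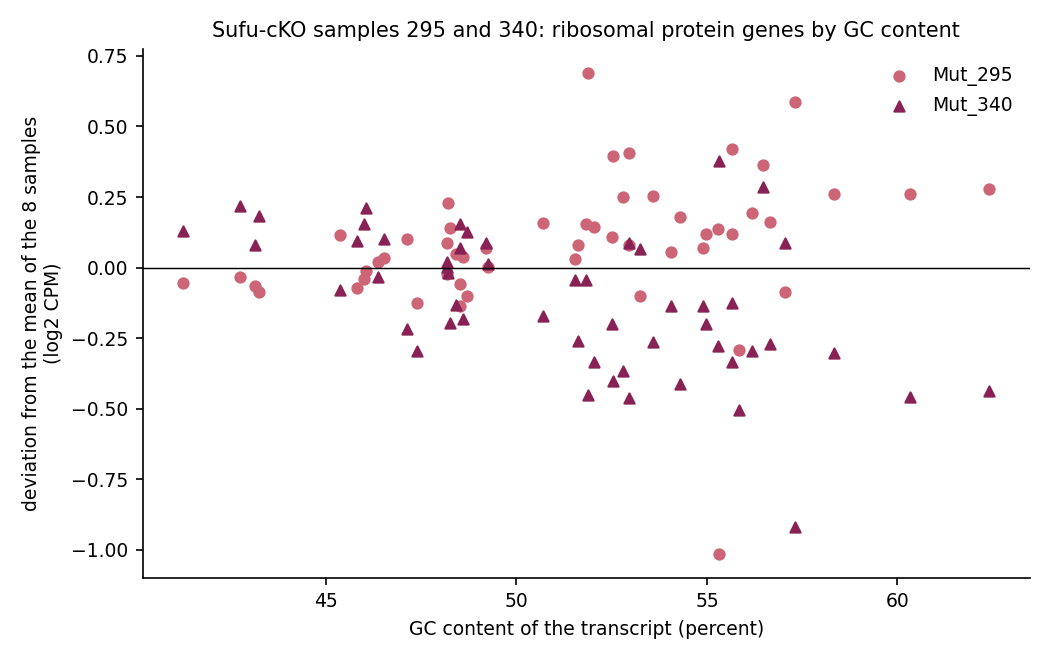
Deviation of 53 ribosomal protein genes from their mean over the 8 samples (log2 CPM) in Mut_295 (circles) and Mut_340 (triangles), both Sufu-cKO, against the GC content of the transcript in percent. Above 50% GC most Mut_295 points lie above 0 and most Mut_340 points below, and the 4 genes of up to 45% GC lie the other way round.

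Genes that serve the same machinery were read beside the 11.0% called over all tested genes. The 44 ribosome biogenesis factors had a median log2 fold change of -0.05, with 35 below 0, where 48.2% of all tested genes lay. EdgeR called 1 of the 44 higher and 0 lower (2.27%). The 1 was Ltv1, which matures the small subunit, at 61.6, 56.5, 53.4 and 57.4 CPM in controls and 72.0, 73.4, 72.7 and 80.1 CPM in Sufu-cKO (edgeR log2 fold change 0.38, SE 0.063, adjusted p = 0.00196), with no overlap. Nucleolin (Ncl) lay at 1296 ± 78.5 and 1312 ± 73.2 CPM and nucleophosmin (Npm1) at 491 ± 28.1 and 435 ± 36.0 CPM, and neither passed the test. EdgeR, DESeq2 and limma-voom each called 0 of 14 RNA polymerase I genes (median -0.04), 0 of 11 chaperones of ribosomal proteins (-0.01) and 0 of 45 translation factors (0.00), with 0 at an unadjusted p under 0.05 in each. They also called 0 of 21 other TOP messages (median -0.02), 0 of 21 genes of the mTOR and LARP1 axis (0.02) and 0 of 76 mitochondrial ribosomal protein genes (0.02), with 1 at an unadjusted p under 0.05 in each of these 3 lists. Among 13 genes of the MYC network, whose transcription factors drive ribosome genes in many cell types, 0 were called higher and 1 lower (7.69%), Mycn. It had 145, 147, 146 and 125 CPM in controls and 104, 88.4, 78.5 and 85.2 CPM in Sufu-cKO samples, with no overlap (edgeR log2 fold change -0.66, SE 0.085, adjusted p = 0.00037).

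Of 6 ribosomal proteins whose symbols fall outside the naming rule, edgeR, DESeq2 and limma-voom called 0, with 0 at an unadjusted p under 0.05. Rps3a1, a small subunit protein near the mRNA exit, had the same kind of steps as the members above. It was at 46.7, 44.2, 45.4 and 0.988 CPM in controls and at 1.49, 45.9, 0.645 and 108 CPM in Mut_295, Mut_317, Mut_337 and Mut_340.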

How the data were processed

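RNA sequencing of polyadenylated RNA (a stranded TruSeq kit, per the labels' protocols) covered 4 control and 4 Sufu-cKO samples. Reads were aligned with STAR 2.4.2a to GRCm38, per the submitters' processing notes. Not given in the sources used here are the counter, its strand setting, its handling of reads with several matches, the annotation and the program of the authors' test. Raw counts were deposited by the authors, beside a normalised signal (each count over the sample's size factor), a fold change (ratio) and p-values with false discovery rates. In that table, 1 gene identifier was restored from formula text, and 0 value columns matched no sample. Counts were tested in R 4.3.3 with edgeR 4.0.16 (filterByExpr, minimum count 10 and total 15; TMM factors; robust quasi-likelihood F-test, 2-sided; Benjamini-Hochberg over 15382 genes), checked on simulated data. The SE comes from the log2 fold change and F. Level per kilobase uses the union of exons of GENCODE M21. DESeq2 1.42.0, limma-voom (limma 3.58.1), other scalings, filters and left-out samples were alternatives; removing the GC trend and adding the counts of copies to their member were chosen after seeing the data. A copy is another annotated gene with at least 90% identity over at least 50% of the member's transcript and 60% of its own exons. Spread is the within-group SD of log2(CPM + 0.5). Every pair of samples within a group differed by more than sampling noise.

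The members and lists were chosen with earlier results of these data known. Named members are those called, those with the 5 highest and 5 lowest fold changes and levels per kilobase, the 5 largest and 5 smallest spreads, the paralogues with their partners, the stalk and 5S particle proteins, and the untested; from lists, up to 4 called genes, made up to 2 with the most abundant. Other members were named after their values were seen. A few members counted in the totals are not reported here by name.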

Additional observations from a re-analysis of the deposited data

Results flagged for a closer look

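In 66 checks of the 33 named tested members (each genotype separately), 9 found 1 of the 4 samples far from the other 3, its gap to the nearest exceeding Dixon's 95% critical share of the range; chance gives about 1 in 20 groups. Over all tested members, 16 of 154 did. Some named members were chosen for a large spread or an extreme fold change, and all checks share the same samples. The 9 can therefore not be set against that rate. In controls these were Rpl26 in Cont_294 (108 CPM, others 48.5 to 56.6), Rpl39 in Cont_294 (56.8 CPM, others 47.7 to 49.0), Rpl12 in Cont_345 (18.8 CPM, others 22.8 to 23.5), Rpl35a in Cont_365 (35.3 CPM, others 10.5 to 13.6) and Rps18 in Cont_370 (28.5 CPM, others 9.98 to 11.7). In Sufu-cKO samples they were Rpl30 in Mut_295 (22.4 CPM, others 53.3 to 59.6), Rpl4 in Mut_295 (1274 CPM, others 1297 to 1300.3), Rps2 in Mut_317 (65.2 CPM, others 4.25 to 5.66) and Rpl5 in Mut_340 (64.1 CPM, others 52.4 to 53.7).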

How the results depend on the processing

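No paired analysis was possible because the groups share no replicate numbers. The 1 called member was 0 with limma-voom and 0 with no low-count filter. With a sample left out it ranged from 0 (without Mut_317, Mut_337, Mut_340, Cont_345 or Cont_365) to 2 (without Mut_295: Rpl13a among them); without Cont_294 it was Rpl26, not Rpl29. The count over all genes ranged from 1079 (without Cont_345) to 1836 (without Mut_295), and was 2209 with the GC trend removed and 2124 with DESeq2. The median log2 fold change of the members stayed between -0.08 and -0.04 in all 21 alternatives. Of 690 pairs of a named member and an alternative, 29 had the opposite sign, in 13 members, none called in either fit. The cause of these changes was not tested. Shares of counts moved by less than 1 SD.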
